A study of Mus musculus with 12 samples.

Results

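The expression of 39 genes that are typical of fibroblasts was examined in 12 mouse induced pluripotent stem (iPS) cell clones, because such clones were derived from mouse embryonic fibroblasts (MEFs) and a gene of the starting cell can stay on after reprogramming. The members were all non-control probes whose transcript accession belongs to 1 of these 39 genes, which gave 47 probes out of 55681 on the array, and every gene had at least 1 probe. The question was whether genes of the somatic cell stayed on more in clones without Aid, a cytidine deaminase of B cells for which a role in DNA demethylation has been proposed. All clones carried the Nanog-GFP reporter and were male, of a mixed C57BL6, DBA and 129S4 background, at passage 6 and grown on gelatin under puromycin, with 1 Agilent 1-colour array for each clone. There were 6 clones of each genotype, in 4 series of 3 that share the first number and letter of their names. The Aid+/+ series were 967B (967B2, 967B4 and 967B6), hybridised on slide 1, and 979B (979B1, 979B3 and 979B4), hybridised on slide 3. The Aid-/- series were 979F (979F1, 979F2 and 979F3), hybridised on slide 2, and a series hybridised on slide 3 (981E1, 981E4 and 981E5), called here the slide 3 Aid-/- series. Each clone is the progeny of a single colony, so the spread given is that between clones. The names show that series 979B and 979F come from a shared experiment. According to the methods the reprogramming factors were introduced into MEFs by retroviruses, and the clones were moved from feeder cells to gelatin before RNA was taken. No array of MEFs was analysed here, so levels are compared between clones only.

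Fibroblasts secrete and organise the extracellular matrix. They make fibrillar collagens and collagen VI, glycoproteins that link matrix to cells, enzymes that crosslink or cleave it, and they carry an actin and vimentin cytoskeleton under the control of mesenchymal transcription factors such as those of the Snai, Zeb and Twist families. In reprogramming of fibroblasts these genes are switched off early, as cells turn from a mesenchymal to an epithelial form, and low remaining levels of them are used as a sign of incomplete reprogramming or of other cells in the culture. In RNA from a whole culture, fewer cells of a type and less RNA per cell cannot be told apart, and reprogrammed cells that keep a gene on, fibroblasts and differentiating cells all add to the same signal.

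The start sites of 4 members are shown because DNA methylation acts on CpG dinucleotides. The 4 share an order of clone series given below and were picked for differing CpG content. They therefore cannot show the part of CpG content in that order. Each line gives the 250 bases before the RefSeq start, 5′ to 3′ on the strand of the gene, in the build GRCm38.p6, with CpG dinucleotides in capitals. The windows are chr1:45311288-45311537 on the plus strand for Col3a1, chr3:90603520-90603769 on the plus strand for S100a4, chr6:4505368-4505617 on the plus strand for Col1a2 and chr11:118355412-118355661 on the minus strand for Timp2.
Col3a1: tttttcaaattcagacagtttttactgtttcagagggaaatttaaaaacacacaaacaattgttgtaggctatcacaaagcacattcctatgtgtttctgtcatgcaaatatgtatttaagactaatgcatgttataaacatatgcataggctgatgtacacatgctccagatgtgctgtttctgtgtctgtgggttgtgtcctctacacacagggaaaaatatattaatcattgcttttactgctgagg
S100a4: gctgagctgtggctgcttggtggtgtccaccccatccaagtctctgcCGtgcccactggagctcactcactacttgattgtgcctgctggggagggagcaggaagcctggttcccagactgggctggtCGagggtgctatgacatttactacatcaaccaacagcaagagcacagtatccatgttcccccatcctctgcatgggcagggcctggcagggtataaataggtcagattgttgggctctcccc
Col1a2: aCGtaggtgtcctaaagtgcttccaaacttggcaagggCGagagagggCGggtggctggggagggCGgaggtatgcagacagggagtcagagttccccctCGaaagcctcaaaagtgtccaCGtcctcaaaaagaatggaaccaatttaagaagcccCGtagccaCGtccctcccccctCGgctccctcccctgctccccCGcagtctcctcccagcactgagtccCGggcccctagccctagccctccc
Timp2: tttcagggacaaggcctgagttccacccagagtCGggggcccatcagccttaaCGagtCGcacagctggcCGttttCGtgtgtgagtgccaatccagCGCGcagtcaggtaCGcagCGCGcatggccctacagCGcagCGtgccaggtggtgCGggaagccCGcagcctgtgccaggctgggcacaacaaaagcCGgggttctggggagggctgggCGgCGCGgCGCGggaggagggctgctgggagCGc
These windows hold 0, 2, 11 and 21 CpG dinucleotides in that order. RefSeq windows of 250 bases before to 50 after the start were given for 22 of the 39 members, and in the first window of each the observed over expected CpG ratio had a median of 0.445, with 7 of 22 (31.8%) above 0.6. Over the first windows of 27025 genes the median was 0.389 and 36.4% lay above 0.6. The letters TATAAA, read on both strands, were in 6 of the 27 windows of members (22.2%) and in 13.6% of all 32851 windows. In clone 967B4, 8 of the 22 members with a window were not marked well above background by the scanner software. Their median ratio was 0.361, with 1 (12.5%) above 0.6. The other 14 had a median of 0.514, with 6 (42.9%) above 0.6. The part of CpG content in the values of the clones was not tested, and DNA methylation was not analysed here.

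SE stands for the standard error of a log2 fold change in limma's fit. Values of single clones are log2 signals relative to the 75th percentile of their array, and they are compared within a probe, not between probes. Where a gene has several probes, the probe that was well above background on most arrays is given. A probe counts as well above background where the authors' scanner software marks it so. Between 56.9% and 60.4% of the 55681 probes were well above background on each array, and no spot was saturated. The genotypes are those of the labels. Of the 39 chosen probes, 24 passed this mark on all 12 arrays, 14 on some and 1, that of Lum, on none.

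At these genes 1 clone, 967B4, lay far from the others, and values that leaving it out moves by over 1.5 times are given without it too. It had the lowest signal of the 12 clones at 32 of the 38 members that were detected anywhere (84.2%), where it was the lowest for 13.1% of the 39170 probes well above background on at least 1 array. Its median deviation from the median of the 12 clones was -2.96 on the log2 scale over these 38 members, and 0.03 over all detected probes. It was well above background at 24 of the 38 members, where each of the other clones was at 34 to 38. S100a4, a calcium-binding protein of motile fibroblasts, was at -3.73 in 967B4 and between 2.74 and 5.50 in the other 11 clones, which puts it 285-fold below their mean. Its second probe was not well above background in 967B4, and the fold there was at least 774. Col1a2, a chain of type I collagen, was at -3.79 in 967B4 and between 0.75 and 3.84 in the others, 87.7-fold below their mean. Timp2, an inhibitor of matrix metalloproteinases, was 40.9-fold lower, and 11.5-fold by its second probe. Acta2, the smooth muscle actin of activated fibroblasts, was 30.7-fold lower and Col1a1, the other chain of type I collagen, 22.3-fold. The chemokine Ccl2 was not well above background in 967B4 and was at least 81.4-fold lower there, and Col6a3 and Col3a1 were at least 21.9-fold and at least 20.7-fold lower. Vim, the intermediate filament of mesenchymal cells, stayed well above background at 1.46 in this clone, against 4.07 to 6.06 in the others. The array of 967B4 had 58.9% of its probes well above background, inside the range of the other arrays.

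**Figure D1:**
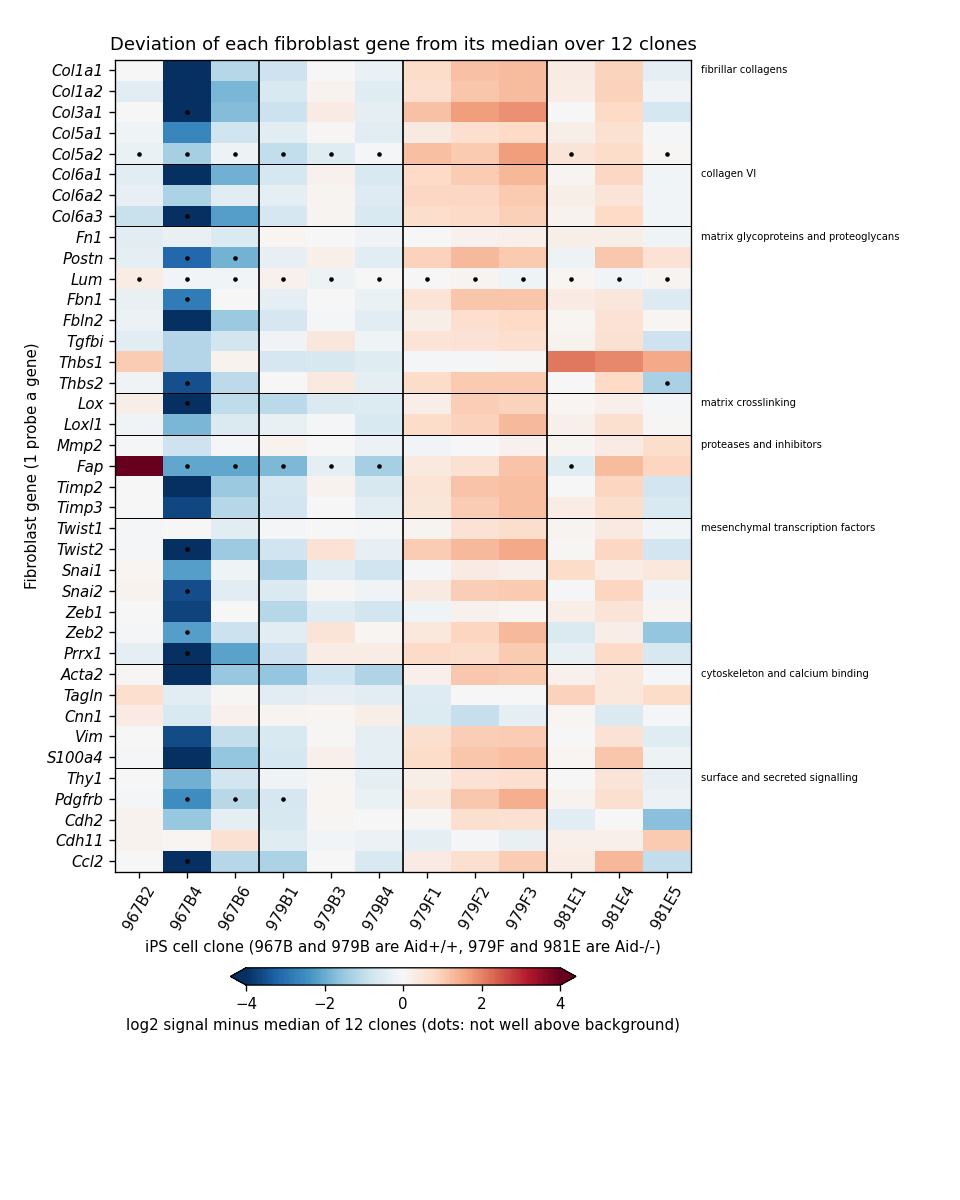
Log2 signal of each fibroblast gene (rows, grouped by role) in each of the 12 iPS cell clones (columns), minus the median of the gene over the 12 clones, with colours limited at 4 in both directions. Dots mark signals not well above background. Clone 967B4 is lowest at 32 of the 38 detected genes, and a clone of series 979F is highest at 28.

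The other clones formed a graded order. After 967B4, the lowest median deviations over the 38 detected members were those of 967B6 (-0.91), 979B1 (-0.65) and 979B4 (-0.40), all Aid+/+. The values of 981E5 (-0.13), 967B2 (-0.04), 979B3 (0.04) and 981E1 (0.12) lay close together and held both genotypes. The highest were those of 979F1 (0.43), 981E4 (0.63), 979F2 (0.85) and 979F3 (1.04), all Aid-/-. A 979F clone had the highest signal at 28 of 38 members (979F3 at 22 and 979F2 at 6), where a 979F clone was the highest for 21.4% of all detected probes. At 26 of the 38 members the means of the series had the same order, with 979F over the slide 3 Aid-/- series over 979B over 967B. Without 967B4 this order was found at 20 members, and 979F had the highest mean at 30 and 967B the lowest at 23.

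In the comparison of 6 Aid-/- with 6 Aid+/+ clones, the signals of 37 of the 39 members were higher on average in Aid-/- clones, and none of the 47 probes passed an adjusted p of 0.05 in limma's test over all 55681 probes. Of all probes, 0.0611% were called in this comparison (34 probes) and 44.3% had a higher mean in Aid-/- clones. The median log2 fold change over the 39 members was 1.22, which is 2.33-fold, against -0.01 over all probes. Over the 24 members well above background on all 12 arrays, 23 were higher and the median was 1.18, against -0.06 over all 28322 probes of that kind. At an unadjusted p under 0.05, 26 of the 39 members were higher and 1, Cnn1, was lower, where 5.5% of all probes were higher at that p. Without 967B4, 37 of 39 were still higher, with a median of 0.87 (1.82-fold) and 27 higher at an unadjusted p under 0.05. No member probe was called in this fit either, where 0.0772% of all probes were. With slide as a block, which leaves the difference between the 6 clones on slide 3, 34 of 39 were higher with a median of 0.53 (1.45-fold) and 5 had an unadjusted p under 0.05, and in the experiment shared by 979B and 979F the median was 1.13 (2.19-fold). The difference between genotypes could therefore not be told from the difference between these 4 clone series, and 37 of 39 genes moving together are not 37 independent observations, since they were measured in the same 12 clones.

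**Figure D2:**
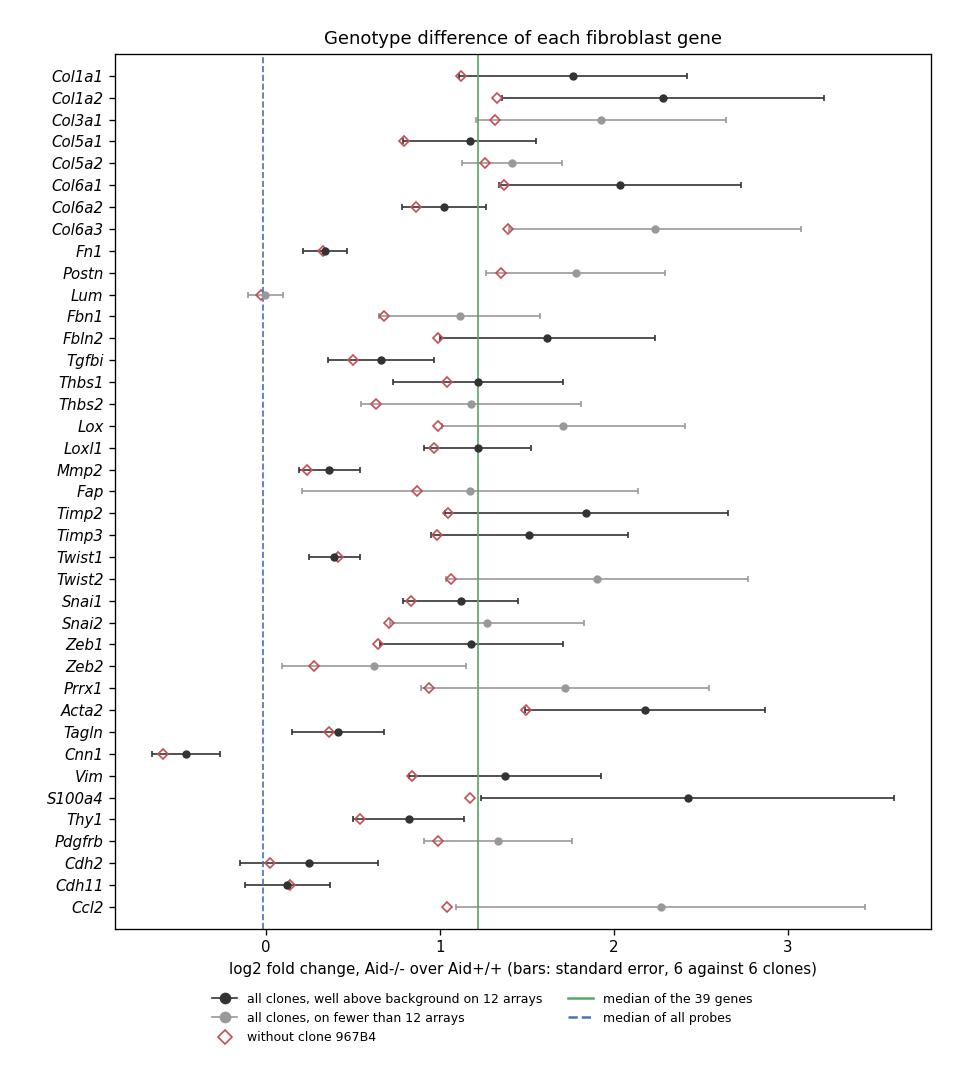
Log2 fold change of Aid-/- over Aid+/+ clones for each fibroblast gene (points, with the standard error of limma's fit to 6 against 6 clones as bars; grey where the probe was well above background on fewer than 12 arrays), and the same without clone 967B4 (open diamonds). The solid line is the median of the 39 genes, 1.22, and the broken line that of all probes, -0.01. Cnn1 and Lum are the genes at or below 0.

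Among fibrillar collagens and collagen VI, all 8 members were higher in Aid-/- clones, each at an unadjusted p under 0.05 and none after adjustment. Col5a2, a chain of type V collagen, had the smallest p of all members. Its signal ran from -6.78 to -5.50 in the Aid+/+ group (median -5.83) and from -5.42 to -3.79 in the Aid-/- group (median -4.57). These ranges did not overlap, but the clones at their edges, 979B4 at -5.50 and 981E5 at -5.42, were both not well above background. The log2 fold change of Col5a2 was 1.42 (± 0.29 SE, adjusted p = 0.0872, limma). The probe was detected in none of the Aid+/+ clones and in 4 of the 6 Aid-/- clones. Against the lowest signal detectable on the Aid+/+ arrays, the mean of the 6 Aid-/- signals was 1.43-fold higher. That mean includes the undetected signals of 981E1 and 981E5, so the fold is not a strict lower bound. Col6a2, a chain of collagen VI, lay between -4.63 and -3.24 (median -3.74) in Aid+/+ and between -3.47 and -2.30 (median -2.68) in Aid-/- clones, with a log2 fold change of 1.02 (± 0.24 SE, adjusted p = 0.111). The ranges of the genotypes overlapped narrowly. Col1a2 ranged from -3.79 to 2.71 in Aid+/+ clones (median 2.04) and from 2.45 to 3.84 in Aid-/- clones (median 3.38). Its log2 fold change of 2.28 had a standard error of 0.93 (adjusted p = 0.306) and was 1.33 without 967B4. Col6a1 had 2.03 (± 0.69 SE, adjusted p = 0.227), and 1.37 without that clone.

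Glycoproteins and enzymes of the matrix differed more among themselves. Of the 8 glycoproteins and proteoglycans, 7 were higher and 5 had an unadjusted p under 0.05. Postn, a matricellular protein of remodelling tissue, lay between -7.01 and -3.67 (median -4.27) in Aid+/+ and between -4.07 and -2.59 (median -2.87) in Aid-/- clones. Its log2 fold change was 1.78 (± 0.51 SE, adjusted p = 0.163), and 1.35 without 967B4, and its signal was not well above background in 967B4 and 967B6. Fn1, fibronectin, which binds cells to the matrix, ranged only from 5.86 to 6.50 in Aid+/+ and from 6.27 to 6.66 in Aid-/- clones, and its lowest clone was 967B6, while 967B4 was at 6.15. Fbln2, a glycoprotein of elastic fibres and basement membranes, lay between -1.28 and 3.00 in Aid+/+ and between 3.15 and 3.87 in Aid-/- clones and did not overlap, although its adjusted p was 0.278. Loxl1, an enzyme that crosslinks elastin and collagen, was at -1.92 to -0.12 (median -0.52) in Aid+/+ and at -0.04 to 1.22 (median 0.60) in Aid-/- clones, without overlap, and had a log2 fold change of 1.22 (± 0.31 SE, adjusted p = 0.127). Every Aid-/- clone was above every Aid+/+ clone at 3 of the 39 members, Col5a2, Fbln2 and Loxl1, and at 0.697% of all probes. For Col5a2 this rests on signals not well above background. Over members well above background on all 12 arrays it was so at 2 of 24, Fbln2 and Loxl1, and at 269 of the 28322 probes of that kind. Timp2 and Timp3, inhibitors of metalloproteinases, had log2 fold changes of 1.84 (± 0.81 SE, adjusted p = 0.348) and 1.51 (± 0.57 SE, adjusted p = 0.268), and 1.05 and 0.99 without 967B4. Fap, a surface protease of activated fibroblasts, was high in a single clone, 967B2, at -0.81, where the other 11 clones lay between -7.31 and -3.97.

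All 7 mesenchymal transcription factors had a higher mean in Aid-/- clones, and 5 an unadjusted p under 0.05. Snai1, a repressor of epithelial genes, lay between -2.07 and 0.21 (median -0.47) in Aid+/+ and between 0.07 and 0.88 (median 0.45) in Aid-/- clones. Its log2 fold change was 1.12 (± 0.33 SE, adjusted p = 0.173), and 0.84 without 967B4. Twist2 and Snai2 were not well above background in 967B4 and had differences of 1.90 and 1.27, which were 1.06 and 0.71 without that clone, while Twist1 differed by 0.39 and its lowest clone was 967B6 at -2.67. Of the 5 cytoskeletal and calcium-binding members, S100a4 and Acta2 had, with Col1a2, the 3 largest differences among the 24 members well above background on every array. S100a4 ranged from -3.73 to 4.49 (median 3.75) in Aid+/+ and from 4.08 to 5.50 (median 5.21) in Aid-/- clones. Its log2 fold change of 2.42 (± 1.19 SE, adjusted p = 0.402) became 1.17 without 967B4. Acta2 ranged from -3.83 to 1.34 (median -0.06) and from 1.26 to 2.38 (median 1.63), with a change of 2.18 (± 0.69 SE, adjusted p = 0.198), and 1.49 without 967B4. Cnn1, the actin-binding calponin of smooth muscle, was the exception, with 0.60 to 1.53 (median 1.33) in Aid+/+ and 0.26 to 1.27 (median 0.72) in Aid-/- clones and a log2 fold change of -0.46 (± 0.19 SE, adjusted p = 0.328). All 5 surface and secreted members were higher on average, 2 of them at an unadjusted p under 0.05. They include Pdgfrb, the receptor of platelet-derived growth factor on mesenchymal cells, with 1.34 (± 0.43 SE, adjusted p = 0.200), and Thy1, a surface marker of fibroblasts, with 0.82 (± 0.32 SE, adjusted p = 0.284), and 0.54 without 967B4.

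The series 979B and 979F hold both genotypes from a shared experiment, although 979F and 979B lay on different slides, so that slide and genotype cannot be told apart there. All 3 clones of 979F lay above all 3 of 979B at 31 of the 39 members, where this was so for 12.5% of all probes, and 37 members had a higher mean, against 43.3% of all probes. No member probe passed the adjusted p, where 0.614% of all probes did, and 8 of 47 member probes had an unadjusted p under 0.05, where 14.6% of all probes had. Of the 39 chosen probes, 6 had such a p, and 27 had it when 967B4 was left out, where 19.2% of all probes had. For Col5a2 the log2 difference was 1.80 (± 0.35 SE, adjusted p = 0.0550), and for Col6a2 it was 1.16 (± 0.27 SE, adjusted p = 0.0906). Their 979F clones were at -4.27, -4.42 and -3.79 for Col5a2 and at -2.52, -2.52 and -2.30 for Col6a2, and their 979B clones at -6.43, -5.95 and -5.50 and at -3.72, -3.24 and -3.86. The 979B signals of Col5a2 were not well above background. They lay below the lowest detectable signals of their arrays (-4.87, -5.20 and -4.99), so the size of its difference and its p-values rest on undetected signals. These series hold no 967B4, but that clone adds to the spread of the fit, and when it was left out 4 member probes were called, with 2.36% of all probes. They were Col5a2 (adjusted p = 0.0213), Col6a2 (0.0288), Loxl1 (0.0329) and Acta2 (0.0455), all higher in 979F.

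On slide 3, where the genotypes were hybridised together, the Aid-/- clones were compared with 979B. Thbs1 and Tagln rose in the Aid-/- clones, and no other member probe passed the adjusted p. These are 2 of 47 probes, and 4.13% of all probes passed, so the share of members called was near that of all probes. No member was called without 979B1 or without 979B3, and 1 was called without any of 8 other clones, so that both calls were kept only without 967B2 and without 967B4. Thbs1, thrombospondin 1, a matricellular protein that activates latent TGF-beta, was at 1.09, 0.91 and 0.50 in the Aid-/- clones of slide 3 and at -1.70, -1.67 and -1.52 in the 979B clones. The log2 fold change was 2.46 (± 0.43 SE, adjusted p = 0.0144). Tagln, transgelin, an actin-binding protein of smooth muscle and activated fibroblasts, was at 3.57, 3.05 and 3.36 in the Aid-/- clones and at 2.22, 2.29 and 2.18 in 979B, a change of 1.10 (± 0.26 SE, adjusted p = 0.0452). Neither gene had the order of series found at most members, and both had lower values in 979F, where Thbs1 was at -1.10, -1.06 and -0.99 and Tagln at 2.11, 2.63 and 2.64. In the Aid+/+ clones 967B2, 967B4 and 967B6, Thbs1 was at 0.00132, -2.20 and -0.88 and Tagln at 3.29, 2.22 and 2.67. The Tagln value of 967B2 thus lay inside the range of the Aid-/- clones of slide 3. All Aid-/- clones of slide 3 lay above all of 979B at 10 of 39 members, where this was so for 9.71% of all probes. A higher mean in the Aid-/- clones was found at 34 members, against 51.4% of all probes, and 5 of the 39 chosen probes had an unadjusted p under 0.05, where 18.2% of all probes had, and 12 had it without 967B4, where 21.7% of all probes had. Without 967B4, the calls of slide 3 were 4, with 7.59% of all probes, and added Snai1 (log2 fold change 1.31, adjusted p = 0.0106) and Zeb1 (1.09, adjusted p = 0.00981), a repressor of epithelial genes that is found in mesenchymal cells.

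**Figure D3:**
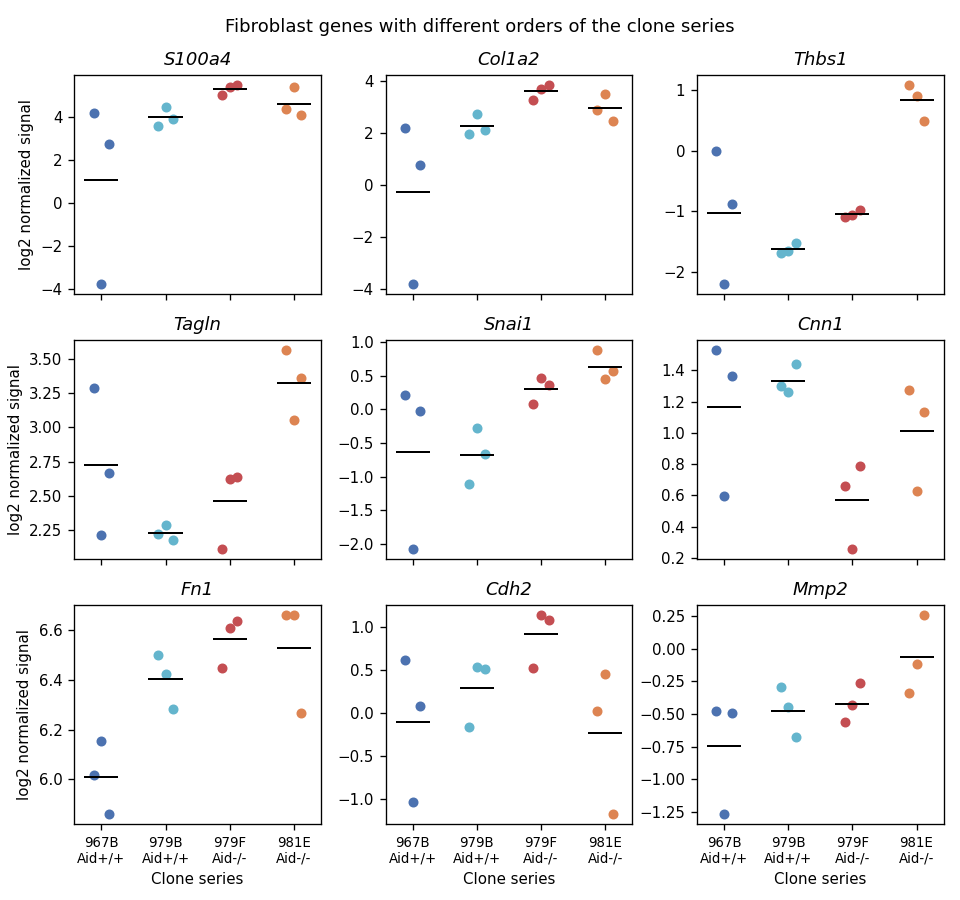
Log2 normalized signal of 9 fibroblast genes in the 3 clones (points) of each series, with the mean of the series as a line; each panel has its own vertical scale. S100a4 and Col1a2 show the order found at most members, Thbs1, Tagln and Snai1 are highest in the slide 3 Aid-/- series, Cnn1 is lowest in 979F, Cdh2 is lowest in the slide 3 Aid-/- series, and Mmp2 is highest in clone 981E5.

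A moderated F test over the 4 series called 4 of the 47 member probes, where 4.16% of all probes were called. They were Col5a2 (adjusted p = 0.0335), Col6a2 (0.0354), Thbs1 (0.0364) and the second probe of Zeb2 (0.0399), which was well above background on no array and therefore has no measured level. Col5a2 was well above background in no clone of 967B or 979B, so its call rests in part on undetected signals. The first Zeb2 probe had an adjusted p of 0.190. Without 967B4 the count was 11, with 8.64% of all probes, and without 967B6, 979F1, 979F2, 979F3, 979B1, 979B3 or 981E4 it was 0. The test of whether the genotype difference between 979F and 979B differed from that between the slide 3 Aid-/- series and 967B called no member probe, where 0.106% of all probes were called, and no member probe had an unadjusted p under 0.05, where 9.85% of all probes had. The median estimate over the 39 members was -0.44, with 8 above 0, and it was 0.49 with 26 above 0 when 967B4 was left out, so its sign rests on that clone. For S100a4 the estimate was -2.22 ± 2.23 SE (adjusted p = 0.796), and 0.18 ± 0.67 SE without 967B4 (adjusted p = 0.983).

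The members on chromosome 8, Mmp2 and Cdh11, were highest in clone 981E5, for Cdh11 by 1 of its probes. Mmp2, the gelatinase A that cleaves type IV collagen, was at 0.26 there, where the other 11 clones lay between -1.27 and -0.12. Like most members, Mmp2 was lowest in 967B4, at -1.27. Cdh11, a cadherin of mesenchymal cells, was also highest in 981E5, at -1.39 against -2.94 to -1.85, by the probe that was detected on all arrays. Over the 909 gene probes of chromosome 8 that were well above background on every array, the median deviation of 981E5 was 0.344, while the other clones lay between -0.0461 and 0.0316, and its part in these values was not tested. The probes of Cdh11 disagreed. The second, detected on 9 arrays, was lowest in 967B4 at -7.18 and highest in 979F3 at -2.66, and its log2 fold change between genotypes was 1.58 (± 0.52 SE, adjusted p = 0.220), against 0.12 (± 0.24 SE, adjusted p = 0.906) for the first. Cdh2, N-cadherin, was lowest in 981E5 at -1.18, and 967B4 was at -1.04.

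Gene lists outside the 39 were set beside these values in each clone, and no gene of them was called between the genotypes over all 12 clones. Of 29 other fibroblast and matrix genes, 21 were higher in Aid-/- clones with a median log2 fold change of 0.74 (20 and 0.55 without 967B4), 967B4 was lowest at 18 of the 28 detected ones, and the smallest p was that of Serpinh1, a collagen chaperone, with 0.39. Between 979F and 979B, 20 of the 29 were higher in 979F, with a median of 0.76. A probe of Loxl2 was called lower in 979F (log2 fold change -1.63, adjusted p = 0.0423), where 0.614% of all probes were called. Another Loxl2 probe (-1.53, adjusted p = 0.0615), Plod2 (-1.17) and Col5a3 (-0.99) were also lower there but not called. Of 15 genes of the TGF-beta pathway, which drives matrix genes in fibroblasts, 10 were higher, with a median of 0.42 and the smallest p at Tgfb2, a ligand, with 1.28. On slide 3, 12 of the 15 were higher in the Aid-/- clones, with a median log2 fold change of 0.20. The matricellular genes Ccn1 and Ccn2, known targets of TGF-beta, were higher there by 2.40 (adjusted p = 0.000188) and 2.07 (adjusted p = 0.00399). Skil, an inhibitor of the pathway, was lower by 1 probe (log2 fold change -0.72, adjusted p = 0.0237), while its other probe was not called (-0.45, adjusted p = 0.257). Smad7 (0.11, adjusted p = 0.755) and Tgfb1 (-0.26, adjusted p = 0.618) were not called. Of all probes, 4.13% were called on slide 3. Between 979F and 979B, Ccn1 (0.29, adjusted p = 0.473) and Ccn2 (0.57, adjusted p = 0.357) were not called. The part of the pathway in these values was not tested. All 10 epithelial genes were lower in Aid-/- clones, with a median log2 fold change of -0.53 (-0.43 without 967B4) and the smallest p at Ocln, a protein of tight junctions, with -0.93. On slide 3, 4 of the 10 were higher in the Aid-/- clones, with a median of -0.18. The median deviation of the epithelial list was highest in 967B4 (0.80), and it was below 0 in 979F1 (-0.52), 979F2 (-0.74), 979F3 (-0.58), 981E4 (-0.45) and 979B4 (-0.02). In 967B6, the clone with the next lowest fibroblast genes, it was 0.02, in 967B2 0.05 and in 981E1 0.08, and 979B1 (0.23), 979B3 (0.24) and 981E5 (0.24) lay close together across genotypes. The part of epithelial content in the genotype values was not tested.

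**Figure D4:**
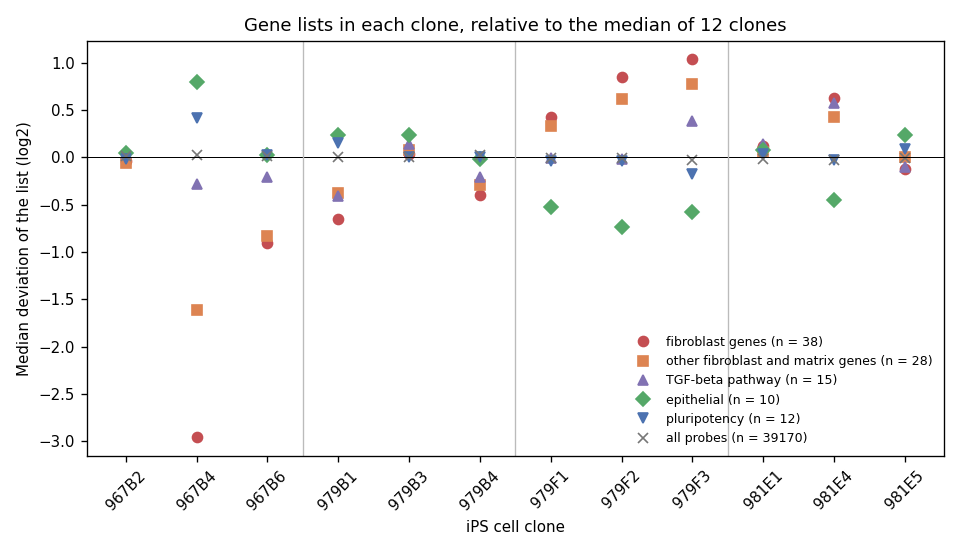
Median deviation of each gene list (log2 signal minus the median of the 12 clones, median over the detected genes of the list) in each clone; the list sizes are in the legend and vertical lines separate the 4 series. In 967B4 the fibroblast genes are at -2.96 and the epithelial genes at 0.80, in 979F3 they are at 1.04 and -0.58, and all probes stay within 0.03 of 0.

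The 12 pluripotency genes were well above background on all 12 arrays. In Aid-/- clones 2 of them were higher on average (5 without 967B4), the median log2 fold change was -0.08 (-0.05 without 967B4), and Tdgf1, a co-receptor of Nodal, had the smallest p with -0.52. Their deviation was 0.42 in 967B4 and within 0.18 of 0 in all other clones. The summed signal of the list, in units of the 75th percentile of an array, was between 891 and 1192 in Aid+/+ and between 833 and 1085 in Aid-/- clones, and such sums weight the brightest probes and are not compared between lists. The sum of the fibroblast genes was between 86.6 and 219.6 in Aid+/+ and between 183 and 359 in Aid-/- clones, and Fn1 made up 27.8% to 82.2% of it, most in 967B4. Without Fn1 the sum was between 15.4 and 133.7 in Aid+/+ and between 106 and 259 in Aid-/- clones. The summed signal of the epithelial genes was between 61.4 and 94.0 and between 41.3 and 99.7. Of 10 endoderm genes, 7 were higher with a median of 0.79 (Col4a2 0.90), and of 7 mesoderm genes 1 was higher with a median of -0.12 (-0.20 without 967B4; Kdr -0.18). The 5 smooth muscle genes had a median of 0.08 (0.13 without 967B4; Actg2 1.04) and the 4 endothelial genes of 0.18 (0.00509 without 967B4; Tie1 1.12), with Cdh5, a defining endothelial cadherin, well above background on no array. Of 3 leukocyte genes, 1 was higher (Csf1r -0.17), and Ptprc, the common leukocyte antigen, was well above background on no array. The genes named in parentheses had the smallest unadjusted p of their list. On slide 3 the median log2 fold change was 0.67 for the endoderm genes, with 8 of 10 higher, against 0.53 for the 39 members. It was 0.60 for the 5 smooth muscle genes, all higher, of which 2 were well above background on no array. It was 0.41 for the endothelial, 0.04 for the mesoderm and -0.21 for the leukocyte genes. Summed signals were between 0.694 and 1.36 in Aid+/+ and between 0.826 and 1.26 in Aid-/- clones for the endothelial list, and between 1.10 and 1.44 and between 0.958 and 1.37 for the leukocyte list.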

How the data were processed

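RNA of 12 iPS cell clones was measured on 1-colour Agilent arrays. The authors deposited, per array, processed spot intensities from Agilent's Feature Extraction, corrected for background but not scaled between arrays, flags for spots well above background, and log2 values that GeneSpring GX had set to 0 at each array's 75th percentile. From the intensities, log2 was taken, control and outlier spots were left out, replicate spots were averaged, and each array was scaled by its own 75th percentile. Comparisons were fitted over all 55681 probes with limma 3.58.1 (R 4.3.3) and adjusted by Benjamini-Hochberg, and calls are at an adjusted p under 0.05. The fits were also run on simulated data to check the code. The simulated noise was independent between probes and clones, without clone series or an outlying clone, so it bears on none of the calls. Series contrasts came from a fit with a mean per series. Names came from RefSeq GRCm38.p6, which matched 27235 of 28685 accessions. The number of arrays limits the precision, and p-values measure the spread between clones.

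The members and lists were chosen with earlier results of these data known. Named were members called in any comparison, those with the 5 smallest p-values, the 3 largest changes and the 5 largest SDs, those with an outlying clone, and those on chromosome 8. Fn1, Thy1, Pdgfrb, Cdh2, Col3a1 and Col6a3 were named after their values were seen. A fold against undetected signals takes, for the dim array, the higher of the probe's signal and the lowest signal well above background on that array. Alternatives covered scaling, background, filters, variance models, blocks, thresholds and leaving out clones. Normexp used median spot signals, chosen after the files were seen, since they hold no mean signal. The methods' t-test was run on the deposited log2 values. The check of the targeted gene is not reported here.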

Additional observations from a re-analysis of the deposited data

Results flagged for a closer look

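In 76 groups of 6 clones, those of each genotype at the 38 detected members, a clone stood out in 21 (27.6%) by Dixon's test, which divides the gap to the nearest clone by the range; chance gives about 1 in 20 (5%). The groups share clones and are not independent. Clone 967B4 stood out as the lowest Aid+/+ clone at 18 genes, and it was well above background at 12 of them. At the other 6 (Ccl2, Fbn1, Lox, Snai2, Thbs2 and Twist2) its signal is only a bound. With undetected signals set to the lowest detectable signal of their array, a setting chosen after seeing the data, Lox (0.544), Thbs2 (0.159) and Twist2 (0.446) no longer stood out and 15 genes remained. The gap over the range was 0.871 for Fbn1, 0.84 for Ccl2, 0.811 for Snai2, 0.787 for S100a4, 0.744 for Lox, 0.733 for Col1a1. It was 0.718 for Vim, 0.711 for Cnn1, 0.702 for Timp2, 0.698 for Col1a2, 0.695 for Zeb1, 0.692 for Loxl1, and 0.691 for Acta2, 0.687 for Col5a1, 0.686 for Timp3, 0.671 for Fbln2, 0.66 for Twist2, 0.632 for Thbs2. Cnn1, which was lower in Aid-/- clones, was also lowest in 967B4 among Aid+/+ clones, at 0.60 against 1.26. Fap stood out in 967B2 (0.742), where it was at -0.81 with the nearest Aid+/+ clone at -5.63. Twist1 stood out in 967B6 (0.843), at -2.67 against -2.29, a small distance. Tgfbi, a matrix protein induced by TGF-beta, stood out in 981E5 as the lowest Aid-/- clone (0.647), at -0.01 against 0.96.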

How the results depend on the processing

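No member probe was called between the genotypes in the main setting or without any single clone, and 11 of 14 other alternatives gave 0 as well. The exceptions were 1 (Col5a2) at an adjusted p under 0.1, 1 (Col6a2) among probes well above background on all 12 arrays and 2 (Thbs1 and Tagln) with slide as a fixed block. Between 979F and 979B the count of 0 became 2 at an adjusted p under 0.1, 1 with quantile normalization, 1 with normexp, 1 in each filter on dim probes, 7 without 967B4 and 981E5, and 0 to 4 without single clones. Over all probes, the 342 calls of this comparison became 1075 at an adjusted p under 0.1, 605 with quantile normalization and 743 with normexp. They were 581 of 39234 and 1022 of 28322 in the filters, 2585 without 967B4 and 981E5, and 53 to 1312 without single clones. The 2 calls of slide 3 became 4 without 967B4 and 981E5 and 0 to 4 without single clones (0 without 979B1 or 979B3, 1 without any of 967B6, 979F1, 979F2, 979F3, 979B4, 981E1, 981E4 or 981E5). Over all probes, the 2299 calls of slide 3 became 3554 without 967B4 and 981E5, and 748 to 4225 without single clones. The 4 calls across series became 8 at an adjusted p under 0.1, 16 with normexp, 9 with an intensity trend, 11 without 967B4 and 981E5, and 0 to 14 without single clones (14 without 967B2, 1 without 979B4 or 981E1). Over all probes, the 2318 calls across series became 4847 at an adjusted p under 0.1, 4029 with normexp and 3496 with an intensity trend. They were 4882 without 967B4 and 981E5, and 771 to 4810 without single clones (1913 without 967B2). The cause was not tested. The interaction called 0 in all of its alternatives. The median log2 fold change of the 24 members detected on all arrays was 0.84 to 1.30 without single clones, lowest without 967B4, 0.57 with slide as a fixed block and 0.91 to 1.23 in 7 other settings, against 1.18.

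Signs turned for Zeb2 (-0.67), Tgfbi (-0.0729), Thbs2 (-0.16) and Cdh2 (-0.53) with slide as a fixed block, Fap (-0.0176) with normexp, and Cdh11 without 967B4 and 981E5 (-0.0477) or without 981E5 (-0.0644 to 0.243 without single clones). Over all probes, the 34 genotype calls became 44 with the percentile over detected probes (33 higher and 11 lower, against 17 and 17), 109 among probes detected on any array and a similar count with quantile normalization, 489 with normexp, 481 among probes detected on all arrays, 396 at an adjusted p under 0.1, 19 with a fold over 2, 2299 with slide as a fixed block, 288 with the trend, 376 with the methods' t-test, 7 and 15 with series and slide as random blocks, and 6 to 67 without single clones. The normexp on mean signals was not run, since the files hold only medians. No paired analysis was possible because the replicate numbers only follow the order of the samples. Signal over background limits the 14 members detected on some arrays, of which 967B4 has only bounds.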
